A study of Equus caballus with 20 samples.

Results

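The comparison described here is the difference between pregnant and cyclic (not pregnant) mares in the epithelium of the oviduct, averaged over both oviducts. All 20 of the 20 RNA-seq libraries of the series enter it. They came from Warmblood mares, 4 days after ovulation in every group, and hold epithelial cells from the junction of the ampulla and the isthmus. The 4 groups of 5 libraries are pregnant mares sampled on the side of ovulation (pregnant ipsilateral, PI) or on the other side (pregnant contralateral, PC), and cyclic mares sampled on the same sides (cyclic ipsilateral, CI, and cyclic contralateral, CC). The 10 pregnant libraries were set against the 10 cyclic ones as the mean of the difference PI minus CI and the difference PC minus CC, on log2 values, with each pregnancy status and replicate number treated as a random block of 2 libraries. The labels give no age, treatment or insemination detail, and do not say whether the ipsilateral and contralateral library of a number came from 1 mare. Since nothing else describes how the replicates were taken, the p-values below measure the spread between these libraries, with the block allowed for. The tests used a median of 20.9 degrees of freedom over features, although there are only 10 blocks. Where the libraries of a number came from 1 mare, p-values and confidence intervals may therefore be too small.

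The oviduct is the site of fertilization, and the early embryo spends its first days there, bathed in fluid that the epithelium secretes and moves. That lining consists of multiciliated cells, which beat, and secretory cells, with scattered lymphocytes between them. In the mare an embryo is known to act on its own transport, because developing embryos pass to the uterus whereas unfertilized oocytes are usually kept in the oviduct, and prostaglandin E2 from the embryo is part of that passage. Because the embryo lies in 1 oviduct only, averaging over both sides asks what differs between the mares, not what differs beside the embryo.

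Depth ran from 2795168 to 10126484 recovered reads per library, so that a count of 0 still allows 1.75 to 7.03 normalized counts (3 reads, counting error only). Markers of oviduct epithelium were present in every library, with EPCAM at 1120 to 2410, the oviduct transcription factor PAX8 at 1410 to 2490 and FOXJ1, the factor that switches on motile cilium genes, at 2770 to 6340 normalized counts, whereas the oviduct-specific glycoprotein OVGP1 stood at 0 to 15.4. Markers of other cells were present too, and their levels are given beside the results. These are bulk samples, in which fewer cells of a type and less RNA per cell cannot be told apart. In PI1, PI4 and CI3 a single feature without a symbol, ENSECAG00000014226, took 14.4%, 27.8% and 15.4% of the reads. The counts over all features and those of the interferon-stimulated genes are therefore also given without those 3 libraries. For the other lists they are not.

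Averaged over both oviducts, the genes with the smallest p-values were the peptidase genes NLN and ANPEP and the protease gene ADAMTS18, lower in pregnant mares, then the kinase gene EEF2K, higher, and the protease gene MMP7, lower. By count, the broadest difference was in interferon-stimulated genes, which stood higher in the pregnant group. No single feature passed: limma called 0 of 14692 features (0%) at an adjusted p under 0.05, and 433 features (2.95%) were higher and 397 (2.7%) lower at an unadjusted p under 0.05, where 0.05 of all features is 734.6. The median log2 difference over all features was −0.0004, and 49.9% of features were higher. The closest were NLN and ANPEP, each with an adjusted p of 0.051.

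How many features passed moved with several choices of the fit. With the block kept, library weights gave 4 features higher (0.0272%) and 10 lower (0.0681%), and leaving out both libraries of pregnant number 5 gave 4 higher (0.0272%) and 5 lower (0.034%; limma). Without the block, limma called 3 features higher (0.0204%) and 13 lower (0.0885%) in pregnant mares. The 3 were EEF2K, UNC5CL and CCDC96, and the 13 were NLN, ANPEP, ADAMTS18, MMP7, PDE3B, SLC15A2, NTNG1, SEMA6A, ACVR1C, CFTR, PPP1R16B, TENM3 and ENSECAG00000014783, which has no symbol. On the recovered reads, again without the block, edgeR's quasi-likelihood test called 5 higher (0.034%) and 13 lower (0.0885%), and DESeq2 93 higher (0.633%) and 97 lower (0.66%). With the 2 libraries of a number averaged or their reads summed, limma and edgeR called 0. Fits without the block count the 2 libraries of a number as independent. Such libraries deviated together in every pregnant number and in cyclic numbers 1, 2 and 5 (correlations 0.295 to 0.7). Adjusted p-values without the block, here and below, can therefore be too small. Complete separation of the groups was rare: in 0 features (0%) were all 10 pregnant libraries above all 10 cyclic ones, and in 4 (0.0272%) all 10 were below, namely NLN, ANPEP, PDE3B and the pseudouridine synthase PUS7, which was named after its values were seen.

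**Figure D1:**
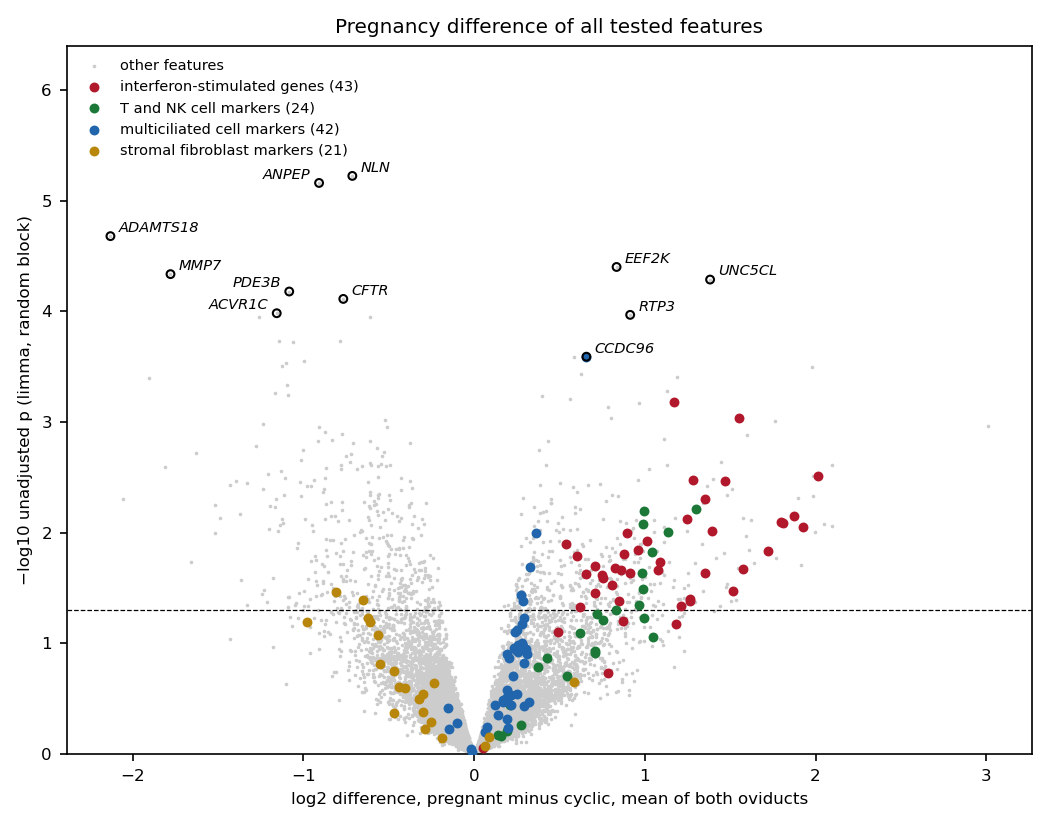
Log2 difference, pregnant minus cyclic, averaged over both oviducts (x axis) against −log10 of the unadjusted limma p (y axis) for all 14692 tested features, with 4 gene lists in colour and 11 genes circled; the dashed line marks an unadjusted p of 0.05. Of the 43 interferon-stimulated genes 38 lie above the line and all 43 to the right of 0, while the highest points are NLN and ANPEP on the left.

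Peptidases at the cell surface shorten peptide signals and release amino acids, and peptide transporters carry the products into the cell. NLN, the metallopeptidase neurolysin, which cleaves neurotensin and other small peptides, stood in PI1 to PI5 at 75.0, 83.6, 90.0, 101 and 83.9 and in PC1 to PC5 at 76.4, 82.0, 77.0, 104 and 112 normalized counts. In CI1 to CI5 it stood at 146, 117, 144, 139 and 152, and in CC1 to CC5 at 174, 151, 152, 139 and 151. The highest pregnant library, PC5, lay just under the lowest cyclic one, CI2, and the means were 88.5 ± 12.9 and 146 ± 14.3 (SD, n = 10 libraries each). That is a log2 difference of −0.71 ± 0.12 (SE; 95% confidence interval −0.96 to −0.47; limma, adjusted p = 0.051, which did not pass).

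ANPEP, the aminopeptidase N of brush borders, stood at 455, 382, 291, 469.7 and 484 in PI1 to PI5 and at 473, 369, 349.7, 293 and 349 in PC1 to PC5, against 1024, 686, 828, 637 and 537 in CI1 to CI5 and 980.3, 781, 693, 669.6 and 571 normalized counts in CC1 to CC5. Again no pregnant library reached the lowest cyclic one, CI5. The mean was 391 ± 74.0 in pregnant and 741 ± 163 in cyclic libraries (SD, n = 10 each), a log2 difference of −0.91 ± 0.15 (limma, adjusted p = 0.051). SLC15A2, the high-affinity carrier of di- and tripeptides, ranged from 58.6 to 128 with a median of 88.5 in pregnant and from 97.7 to 327 with a median of 156 normalized counts in cyclic libraries. The ranges overlapped through PC2, the highest pregnant library, and CI1 and CC5, the lowest cyclic ones, and the log2 difference was −1.0 ± 0.23 (adjusted p = 0.225, or 0.0358 without the block; limma).

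The direction was not that of the whole family. Of 34 tested peptidases and peptide transporters, 15 were higher and 19 lower, with a median log2 difference of −0.06, and 2 were higher and 3 lower at an unadjusted p under 0.05 against 2.95% and 2.7% of all features. The 2 that were higher are DPP4 and ENPEP. DPP4, the dipeptidyl peptidase that trims chemokines and incretins, averaged 965 ± 228 in pregnant and 682 ± 204 normalized counts in cyclic libraries. ENPEP, the aminopeptidase A that acts on angiotensin, averaged 379 ± 84.3 and 287 ± 96.3 (SD, n = 10). FOLH1, a folate-releasing carboxypeptidase outside that list, was named after its values were seen, with 53.5 ± 19.4 and 120.1 ± 55.0 normalized counts and a log2 difference of −1.10 ± 0.26 (limma, adjusted p = 0.273).

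Matrix proteases remodel the tissue around epithelia, and MMP7 is one that epithelial cells make themselves. In pregnant libraries MMP7 ranged from 7.03 to 33.9 normalized counts with a median of 10.9, and in cyclic ones from 25.0 to 95.0 with a median of 61.8. PC2 and PC4 reached the lowest cyclic libraries, while the other pregnant libraries lay below all of them. Its log2 difference was −1.78 ± 0.35 (limma, adjusted p = 0.127, or 0.0262 without the block), and 3 to 126 reads per library lie behind these levels. ADAMTS18, a secreted protease with thrombospondin repeats, ranged from 0 to 21.7 (median 4.44) in pregnant and from 13.8 to 57.6 (median 27.1) in cyclic libraries. Most pregnant values were at or near the level that a count of 0 allows, with 0 to 54 reads over the 20 libraries, so the size of its log2 difference of −2.13 ± 0.39 depended on the pseudocount. The adjusted p was 0.103 (limma), and 0.0239 without the block.

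The rest of the metalloprotease list did not share this. Of 37 tested metalloproteases and inhibitors 13 were higher and 24 lower, and the median was −0.08. At an unadjusted p under 0.05 1 was higher and 2 were lower, against 2.95% and 2.7% of all features. The 1 that was higher is ADAMTS6, a relative of ADAMTS18, with 70.0 ± 48.5 normalized counts in pregnant and 33.7 ± 17.9 in cyclic libraries (log2 difference 0.91 ± 0.38; limma, adjusted p = 0.792).

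Guidance proteins of the semaphorin, netrin and teneurin families steer cell contacts in epithelia as well as in nerves. SEMA6A, a membrane semaphorin, ranged from 175 to 311 (median 197) in pregnant and from 252 to 393 (median 336) normalized counts in cyclic libraries. Only PI3 and PC3, both of pregnant number 3, lay above the lowest cyclic library. The log2 difference was −0.61 ± 0.13 (limma, adjusted p = 0.139, or 0.0327 without the block). NTNG1, a membrane-anchored netrin, averaged 36.1 ± 14.2 in pregnant and 81.0 ± 20.4 in cyclic libraries, and TENM3, a teneurin that binds across cell contacts, 33.1 ± 11.4 and 72.2 ± 24.2 (SD, n = 10), log2 differences of −1.14 ± 0.25 and −1.06 ± 0.24. Neither passed with the block, and both did without it (adjusted p = 0.0289 and 0.0363, limma). Over the 37 tested semaphorins, netrins and receptors 16 were higher and 21 lower, with a median of −0.04. At an unadjusted p under 0.05 SEMA6A, NTNG1 and the plexin receptor PLXNA2 (−0.56 ± 0.18) were lower, and the secreted semaphorin SEMA3E (0.56 ± 0.22) was higher.

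PDE3B, the phosphodiesterase that degrades cyclic AMP and is inhibited by cyclic GMP, ranged from 82.0 to 294 (median 239.8) in pregnant and from 299 to 566 (median 490.2) normalized counts in cyclic libraries. The groups did not overlap, though the margin was a few counts, and the log2 difference was −1.08 ± 0.22 (limma, adjusted p = 0.139, or 0.0327 without the block). The genes of cyclic nucleotide signalling were divided, 17 of 32 being higher and 15 lower with a median of 0.02, and 0 higher and 2 lower at an unadjusted p under 0.05. The other of those 2 is GUCY1B3, a subunit of the guanylate cyclase that nitric oxide activates (−0.40 ± 0.18). ACVR1C, the activin receptor ALK7, averaged 32.9 ± 14 in pregnant and 73.3 ± 16.9 in cyclic libraries (log2 difference −1.16 ± 0.24), and PPP1R16B, a regulatory subunit of protein phosphatase 1, 52.0 ± 11.2 and 121 ± 49.0 (−1.10 ± 0.25; SD, n = 10). Their adjusted p was 0.139 and 0.225 with the block, and 0.0327 and 0.0345 without (limma).

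Growth factors and embryotrophic factors as a list were lower in 18 of 25 members (median −0.17), with 1 higher and 3 lower at an unadjusted p under 0.05. The 1 that was higher is ACVR1B, another activin receptor. Besides ACVR1C the lower ones were the mesenchymal growth factors FGF7, at 3.22 ± 2.89 and 13.5 ± 9.08 normalized counts and thus near the counting floor in pregnant libraries, and HGF, at 22.1 ± 8.56 and 38.9 ± 12.3 (SD, n = 10). Stromal cells are the textbook source of both, and stromal fibroblast markers were lower beside them (below); whether the difference follows those cells was not tested.

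Epithelial fluid is driven by chloride secretion. CFTR, the cyclic AMP-gated chloride channel, ranged from 181 to 344 with a median of 254 in pregnant and from 314 to 535 with a median of 417 normalized counts in cyclic libraries. PI5 alone among the pregnant libraries lay above the lowest cyclic ones. Its log2 difference was −0.77 ± 0.16 (limma, adjusted p = 0.139, or 0.0327 without the block). Of 28 tested ion channels and fluid transporters 11 were higher and 17 lower (median −0.12). At an unadjusted p under 0.05 2 were higher and 5 lower, against 2.95% and 2.7% of all features, and 0 passed. Besides CFTR the lower ones at that threshold were the calcium-gated chloride channel ANO1 (680.0 ± 200.1 and 1042 ± 247), the aquaglyceroporin AQP9 (929.6 ± 540.3 and 1782 ± 635), the sodium pump subunit ATP1B1 (815 ± 221 and 1105 ± 233) and carbonic anhydrase CA2. Higher were the water channel AQP4 and the proton pump ATP12A, the latter at 33.6 ± 23.1 and 9.99 ± 11.3 normalized counts (SD, n = 10 pregnant and 10 cyclic libraries).

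Among genes higher in pregnant mares, EEF2K had the smallest p. It encodes the kinase that slows translation elongation by phosphorylating elongation factor 2. Pregnant libraries ranged from 1071 to 1931 (median 1496) and cyclic ones from 605 to 1325 (median 742) normalized counts. CC5, the highest cyclic library, exceeded PI3, PI5, PC3 and PC5, and the log2 difference was 0.83 ± 0.16 (limma, adjusted p = 0.127, or 0.0289 without the block). UNC5CL, a membrane-bound inducer of NF-kappaB signalling in mucosal cells, ranged from 252 to 844 (median 482) and from 89.6 to 324 (median 166), a log2 difference of 1.38 ± 0.27 (limma, adjusted p = 0.127). CI3 and CC3, the highest cyclic libraries for it, overlapped the low pregnant ones of numbers 2 and 3.

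RTP3, a chaperone of the receptor-transporting family, averaged 118 ± 34.3 in pregnant and 60.8 ± 14.9 in cyclic libraries (SD, n = 10), a log2 difference of 0.91 ± 0.19 (limma, adjusted p = 0.139). Its interferon-inducible relative RTP4 was named after its values were seen, at 520.1 ± 240.0 and 227 ± 84.8 (1.13 ± 0.28).

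**Figure D2:**
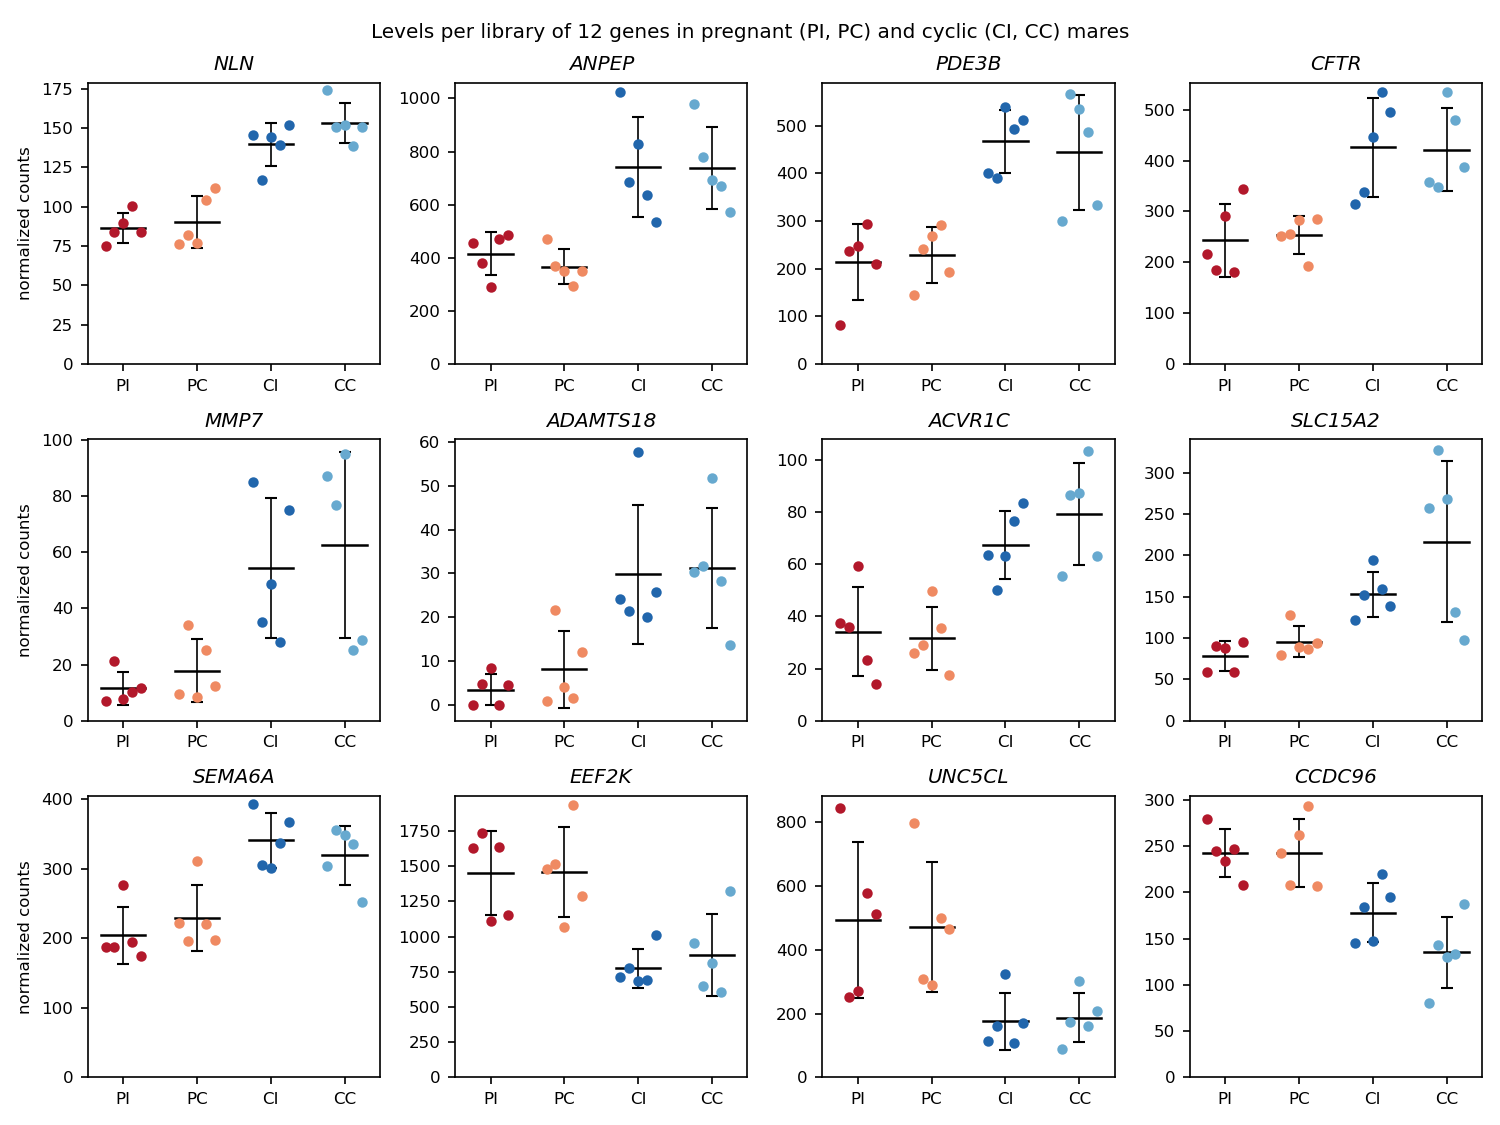
Normalized counts (y axes, from 0) of 12 genes in each of the 20 libraries by group (x axis: PI and PC pregnant, CI and CC cyclic; points are libraries, horizontal lines the mean of 5 libraries and bars ± SD). For NLN, ANPEP and PDE3B all 10 pregnant points lie below all 10 cyclic ones; for the other 9 genes at least 1 library of each status overlaps.

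Genes of motile cilia were slightly higher in pregnant mares. CCDC96, a coiled-coil protein of the ciliary axoneme, ranged from 206 to 293 (median 244) in pregnant and from 80.4 to 219 (median 146) normalized counts in cyclic libraries. CI4, at the top of the cyclic range, overlapped the lower pregnant libraries, and the log2 difference was 0.66 ± 0.15 (limma, adjusted p = 0.223, or 0.0467 without the block). Similar in size was CCDC87, a coiled-coil protein known from sperm, at 157 ± 19.8 and 105 ± 21.8 (0.58 ± 0.13; adjusted p = 0.223, limma). Of 42 tested markers of multiciliated cells 37 were higher and 5 lower, with a median of 0.23, and 5 were higher and 0 lower at an unadjusted p under 0.05 (2.95% and 2.7% of all features). Most of these genes thus differed little: DNAH5, a dynein heavy chain of the ciliary motor, averaged 25256 ± 2644 and 20897 ± 3490.2 (0.28 ± 0.13) and FOXJ1 4859.7 ± 1001 and 3959 ± 557 (0.28 ± 0.15). The summed level of the list ran from 142570 to 188880 normalized counts in pregnant and from 105290 to 171020 in cyclic libraries. PI1 and PC1, at 188880 and 186140, lay above every cyclic library. The other pregnant libraries lay in the upper part of the cyclic range. Without both cyclic libraries of number 1 the median was 0.15, with 3 genes higher at an unadjusted p under 0.05. In that fit 411 of all 14692 features were higher at that threshold.

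Interferons are antiviral signals, and the genes that they induce act as sensors and effectors against viral RNA. In ruminants an interferon from the conceptus is the signal of pregnancy, whereas the horse conceptus is not known to use one in that way. Here all 43 tested interferon-stimulated genes stood higher in the pregnant group, by a median log2 difference of 1.08 against −0.0004 over all features, and 38 were higher and 0 lower at an unadjusted p under 0.05 (2.95% and 2.7% of all features). All 43 stood higher with limma on these values, and 42 with edgeR or DESeq2. Limma with the block called 0 of them (0% of all features), or MX1 and OAS2 once both libraries of pregnant number 5 were left out (adjusted p = 0.0485 and 0.0487, limma; 0.0272% of all features higher). Pregnant number 5 had a low level of this list (mean log2 6.62 in PI5 and 7.24 in PC5). Leaving it out removes libraries that go against the difference, so these calls are no separate support. No gene of the list was called when any other number or any single library was left out. Without the block edgeR called 1 of the list, MX1 (0.034% of all features higher), and DESeq2 24 (0.633%). Since the genes of the list move together in a library, their number does not measure independent evidence.

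The individual libraries show how the mares were divided. ISG15, a ubiquitin-like protein attached to viral and host proteins, stood in PI1 to PI5 at 330.4, 33.1, 264, 381 and 22.4 and in PC1 to PC5 at 310.0, 21.7, 285, 461 and 46.6 normalized counts. In CI1 to CI5 it was at 86.9, 16.1, 27.0, 22.4 and 40.7, and in CC1 to CC5 at 19.8, 36.0, 33.6, 13.4 and 42.5. Pregnant numbers 1, 3 and 4 were thus far above every cyclic library in both oviducts, whereas numbers 2 and 5 lay inside the cyclic range, and CI1 was the highest cyclic library. The log2 difference was 2.01 ± 0.60 (SE; limma, adjusted p = 0.531; 2-sided exact permutation test over the 252 arrangements of the 10 means of a status and number, p = 0.0873). MX1, a GTPase that traps viral nucleocapsids, ranged from 591 to 6768 (median 4162) in pregnant and from 589 to 1453 (median 937) in cyclic libraries, a log2 difference of 1.55 ± 0.40 (limma, adjusted p = 0.386). OAS2, which senses double-stranded RNA, had the smallest p of the list, at 2791 ± 1412 and 1088 ± 273 (1.17 ± 0.29; SD, n = 10).

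Transcription factors of the pathway followed the same division. IRF7, the amplifier of interferon production, averaged 787 ± 624 in pregnant and 141 ± 131 in cyclic libraries (1.92 ± 0.67; limma, adjusted p = 0.609), and IRF9, a subunit of the factor that type I receptors activate, 805 ± 456 and 336 ± 104 (1.01 ± 0.37; SD, n = 10). The list of interferon receptors and signalling, which shares 5 tested members with the first, had 14 of 21 members higher (median 0.12), with 4 higher and 0 lower at an unadjusted p under 0.05, of which STAT2, IRF7 and IRF9 are shared ones and the DNA sensor MB21D1 is not.

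The mean log2 level of the interferon-stimulated list was 9.11 to 9.53 in the 6 libraries of pregnant numbers 1, 3 and 4, 6.62 to 7.31 in the 4 of numbers 2 and 5, and 6.78 to 8.29 in the 10 cyclic ones. The median log2 difference was 0.83 without both libraries of pregnant number 4, with 13 genes higher at an unadjusted p under 0.05, and 1.44 without both of number 5, with 42. Without PI1, PI4 and CI3 it was 0.91, with 14. Markers of T and NK cells moved with this list, as given below, and with their mean level as a covariate the median was 0.44 and 3 of 43 genes were higher at an unadjusted p under 0.05. With the mean multiciliated marker level as a covariate 16 were. Over all 14692 features 285, 672, 280, 237 and 361 were higher at that threshold in these fits, in the order given, against 433 in the main fit. The counts of the list thus moved in part with those of all features. Both marker levels leaned to the pregnant side themselves. These fits, and those with the same covariates below, therefore cannot separate a cell type from pregnancy status. The part of either cell type in the difference was not tested.

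**Figure D3:**
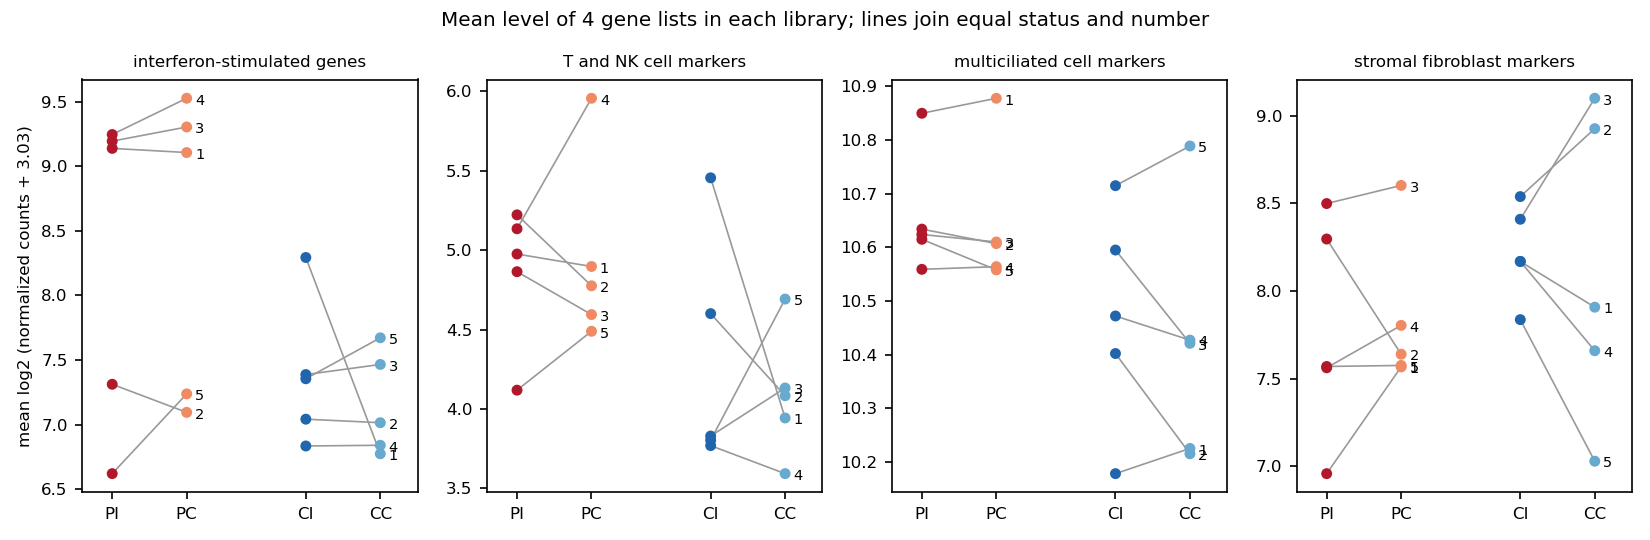
Mean log2 level (y axes, log2 of normalized counts plus 3.03) of 4 gene lists in each library, by group on the x axis; lines join the ipsilateral and contralateral library of the same status and number, with the number beside it. For interferon-stimulated genes the pregnant numbers 1, 3 and 4 sit between 9.11 and 9.53 on both sides, and numbers 2 and 5 between 6.62 and 7.31, within the cyclic range of 6.78 to 8.29 but for PI5.

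Antigen presentation genes differed less. MHC class II molecules show peptides to helper T cells, and 10 of 12 tested genes of that pathway were higher in pregnant mares (median 0.46). At an unadjusted p under 0.05 2 of them were higher and 0 lower, against 2.95% and 2.7% of all features. CD74, the invariant chain that fills the class II groove, ranged from 17571 to 60917 (median 42946) in pregnant and from 17222 to 58488 (median 19335) normalized counts in cyclic libraries, a log2 difference of 0.75 ± 0.28 (limma, adjusted p = 0.707). CI1 stood far above the other cyclic libraries and within the pregnant range. CIITA, the master regulator of class II genes, averaged 784 ± 342 and 510.3 ± 279 (0.64 ± 0.33), and RFX5, a subunit of the factor bound to their promoters, 355 ± 113 and 252 ± 64.5 (0.45 ± 0.21; SD, n = 10). For class I presentation 13 of 15 genes were higher but the median was only 0.14, and TAP1, the peptide pump of the endoplasmic reticulum, was the 1 gene with an unadjusted p under 0.05, at 641 ± 417 and 264 ± 149.9 (1.11 ± 0.46). B2M, the small subunit that all class I molecules need, differed by 0.88 ± 0.46 (limma, adjusted p = 0.914). With the T and NK marker level as a covariate the medians were −0.06 for class II and −0.23 for class I. Near-identical copies of MHC genes can share reads, so single class II genes are uncertain.

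Complement genes were higher in 12 of 13 members (median 0.32). At an unadjusted p under 0.05, where 2.95% of all features were higher and 2.7% lower, 2 of them were higher. These were C2, a protease of the classical pathway, at 139 ± 147 and 38.5 ± 53.0 (1.51 ± 0.69), and C6, a subunit of the membrane attack complex, at 1767 ± 291 and 1447 ± 246 normalized counts (0.29 ± 0.13; SD, n = 10). CLU, the secreted chaperone clusterin, ranged from 10314 to 28749.9 in pregnant and from 6319 to 19011 in cyclic libraries and differed by 0.29 ± 0.25 (limma, adjusted p = 0.999). Of 22 tested chemokines and cytokines 17 were higher (median 0.27), with 1 higher, the mucosal chemokine CXCL17 (0.93 ± 0.38), and 1 lower, the growth inhibitor TGFB2 (−0.52 ± 0.18), at an unadjusted p under 0.05. CXCL10, an interferon-induced chemokine for T cells, ranged from 9.45 to 248 and from 5.27 to 275, and its log2 difference of 0.94 ± 0.74 did not exceed that spread. The medians were −0.08 for complement and −0.13 for chemokines with the T and NK marker level as a covariate. Genes of pattern recognition and NF-kappaB signalling were evenly divided, 13 higher and 12 lower (median 0.03), with 0 at an unadjusted p under 0.05.

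Antimicrobial and mucosal genes were divided 4 to 4 (median −0.04). MUC1, a membrane mucin of the apical surface, was lower at 185 ± 77.7 against 329 ± 100.1 (−0.87 ± 0.26), and PIGR, which carries antibodies across epithelia, higher at 75.4 ± 46.2 against 39.0 ± 33.4 normalized counts (1.05 ± 0.49; SD, n = 10; unadjusted p under 0.05 for both, limma).

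Lymphocytes lie between the cells of the oviduct lining, and the levels of their genes leaned to the pregnant side, though none passed with the block. Without the block DESeq2 called CD2 and CD247 higher (adjusted p = 0.0288 for both), where it called 0.633% of all features higher. All 24 tested markers of T and NK cells were higher (median 0.74; 23 with edgeR or DESeq2), 8 of them and 0 lower at an unadjusted p under 0.05, against 2.95% and 2.7% of all features. CD3E, part of the complex that signals for the T cell receptor, ranged from 17.7 to 92.4 (median 29.6) in pregnant and from 5.40 to 51.2 (median 13.3) normalized counts in cyclic libraries. The ranges overlapped widely, PI2 and PC4 being high and CI1 the highest cyclic one, and the log2 difference was 0.83 ± 0.40 (limma, adjusted p = 0.884; exact permutation p = 0.0476). CD247, the signalling chain of that complex, differed most, by 1.30 ± 0.43, at 31.7 ± 28.9 and 9.28 ± 6.77. CD2, an adhesion receptor of T and NK cells, averaged 75.2 ± 32.3 and 36.1 ± 18.7, and CD8A, the co-receptor of cytotoxic cells, 17.3 ± 8.0 and 6.99 ± 4.47 (SD, n = 10). PTPRC, present on all leukocytes, averaged 306 ± 153 and 204 ± 116 (0.62 ± 0.34; adjusted p = 0.935, limma). The summed level of the list ran from 588.2 to 2396 normalized counts in pregnant libraries and from 450.2 to 1611 in cyclic ones, with CD28, ICOS, KLRD1 and TBX21 below the filter.

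In single libraries this list and the interferon-stimulated list were not parallel throughout. PI2 had the second highest T and NK level of the pregnant libraries (mean log2 5.22) but an interferon-stimulated level of 7.31, within the cyclic range. PC4 was highest in both, at 5.96 and 9.53.

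Markers of other immune cells were divided by list. B and plasma cell markers had a median of −0.19 (3 higher and 7 lower of 10), and PRDM1, a plasma cell and epithelial regulator, was lower at an unadjusted p under 0.05 (−0.55 ± 0.19); the defining B cell genes MS4A1, CD79A, CD79B and PAX5 were below the filter. Markers of monocytes, macrophages and dendritic cells had a median of 0.06 (11 higher and 4 lower of 15), and ITGAM, the integrin chain of myeloid cells, was lower at 61.1 ± 17.3 against 104 ± 29.2 (−0.75 ± 0.21). Neutrophil and mast cell markers were below the filter in 5 of 6, and the 1 tested differed by −0.31. Their summed levels were 1935 to 4282 and 2600 to 5858 for B and plasma cells, 590.6 to 2426 and 724.8 to 1648 for myeloid cells, and 9.33 to 85.3 and 14.4 to 89.7 normalized counts for neutrophils and mast cells, in pregnant and cyclic libraries.

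Stromal fibroblasts lie under the epithelium, and their markers were lower in 18 of 21 members (median −0.40). At an unadjusted p under 0.05 0 were higher and 2 lower, against 2.95% and 2.7% of all features. These were OGN, a small proteoglycan, at 47.0 ± 17.9 and 90.8 ± 51.4, and the collagen chain COL6A3 at 312 ± 89.6 and 528 ± 254 normalized counts (SD, n = 10). COL1A2, a chain of type I collagen, ranged from 220.3 to 1784 and from 365 to 1987, with a log2 difference of −0.55 ± 0.37 (limma, adjusted p = 0.999), and POSTN, a matrix protein of activated fibroblasts, went the other way (0.59 ± 0.47). The summed level was 3606 to 11168 in pregnant and 4203 to 13958 in cyclic libraries. Over the alternatives the median ran from −0.67 without both libraries of pregnant number 3 to 0.0039 with the multiciliated marker level as a covariate, and it was −0.17 without both of cyclic number 3.

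Smooth muscle markers were divided, 7 higher and 6 lower of 13 (median 0.01; summed level 1736 to 3354 in pregnant and 1700.1 to 3015 in cyclic libraries), with MYH11, the smooth muscle myosin, at 319 ± 381 and 342 ± 245 (−0.30 ± 0.45). At an unadjusted p under 0.05 the intermediate filament gene SYNM was lower (−0.52 ± 0.21) and the actin-binding SYNPO2 higher. Endothelial and erythrocyte markers had a median of 0.06 (6 higher and 5 lower of 11; summed 415.8 to 1685 and 424.4 to 1363). Mesothelial and ovarian markers had a median of 0.19 (5 higher and 2 lower of 7; summed 1785 to 3211 and 1698 to 2604), with CALB2 at 0 and the aromatase gene CYP19A1 lower at an unadjusted p under 0.05. Secretory cell markers were higher in 5 and lower in 8 of 13 (median −0.08; summed 9605 to 13188 and 10487 to 14449), with CRISP3 at 0. Of these PAX8 averaged 1769 ± 197 and 1888 ± 356 (−0.079 ± 0.13), OVGP1 5.34 ± 3.82 and 4.34 ± 4.05 near the counting floor (0.28 ± 0.37), and CD44, the hyaluronan receptor, 1607 ± 434 and 2509 ± 938 (−0.62 ± 0.21; SD, n = 10), which with MUC1 made the 2 that were lower at an unadjusted p under 0.05.

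Genes of dividing cells were higher in 31 of 32 members (median 0.56), and 0 had an unadjusted p under 0.05 in either direction. TOP2A, the topoisomerase of replicating cells, ranged from 102 to 1728 (median 308) in pregnant and from 64.6 to 509 (median 258) normalized counts in cyclic libraries. A few pregnant libraries were far above the rest, and its log2 difference of 0.59 ± 0.47 (limma, adjusted p = 0.999) lay within the spread. Without both libraries of pregnant number 4 the median of the list was 0.13, without CC1 0.36, and with the T and NK marker level as a covariate 0.04.

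Estrogen and progesterone set the state of the oviduct lining through the cycle. Of 17 tested steroid receptors and response genes 5 were higher and 12 lower (median −0.23). At an unadjusted p under 0.05 0 were higher and 3 lower, against 2.95% and 2.7% of all features. ESR1, the main estrogen receptor of the oviduct, ranged from 1068 to 2397 (median 1946) in pregnant and from 1418 to 3651 (median 2499.9) normalized counts in cyclic libraries, a log2 difference of −0.44 ± 0.20 (limma, adjusted p = 0.86). ESR2, the second receptor, averaged 299 ± 168 and 485 ± 125 (−0.84 ± 0.31), and FKBP5, a receptor co-chaperone that steroids induce, 786 ± 214 and 1109 ± 200.3 (−0.53 ± 0.18; SD, n = 10). PGR was not found under that symbol.

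Prostaglandin E2 is the embryo's known signal for passage, and the genes for making and sensing prostaglandins were divided, 7 higher and 8 lower of 15 (median −0.07). At an unadjusted p under 0.05 2 were higher and 1 lower, against 2.95% and 2.7% of all features. The 2 were PTGDR, a receptor for prostaglandin D2, at 70.5 ± 59.8 and 15.5 ± 20.5 (1.99 ± 0.59; adjusted p = 0.531, limma), and the prostaglandin carrier SLCO2A1, at 13.9 ± 5.25 and 6.65 ± 5.16 normalized counts and near the floor. The 1 that was lower is the exporter ABCC4 (−0.29 ± 0.12). The prostaglandin E2 receptors PTGER2 and PTGER4, both coupled to cyclic AMP, averaged 182 ± 31.3 and 147 ± 38.3 (0.32 ± 0.15) and 377 ± 109 and 274 ± 116 (0.51 ± 0.27; SD, n = 10). The synthases PTGS2, at 5.09 to 25.8 and 3.84 to 39.1, and PTGES, at 0.943 to 13.0 and 1.07 to 18.3, were low in every library, with differences of 0.31 ± 0.37 and −0.51 ± 0.37. None of these 4 passed (limma, adjusted p = 0.889, 0.914, 0.999 and 0.999), and HPGD, which breaks prostaglandins down, was below the filter.

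The remaining lists had medians between −0.21 and −0.02. Nutrient transporters were lower in 21 of 26 members (median −0.21), with the fatty acid receptor CD36, near the floor, the 1 lower at an unadjusted p under 0.05. WNT and Notch genes were lower in 26 of 39 (median −0.14): the ligand WNT7A (−0.85 ± 0.35) and the transcription factor LEF1 (−0.56 ± 0.20) were lower and its relative TCF7 (0.59 ± 0.19), also a T cell factor, higher at that threshold. Folding and stress genes of the endoplasmic reticulum were lower in 18 of 23 (median −0.12), 1 of them, the stress sensor ERN1, at that threshold. Tight junction and adhesion genes were lower in 19 of 33 (median −0.02), with 1 higher, CLDN1, and 4 lower, CLDN10, CDH3, ITGA2 and ITGB4, the last a subunit of the epithelial hemidesmosome at 11792 ± 3219.8 and 16615 ± 3807 normalized counts. Antioxidant and glutathione enzymes were lower in 15 of 25 (median −0.09), with NQO1 higher (0.68 ± 0.25) and GSTA4 lower (−0.52 ± 0.14). Lipid and sterol synthesis was lower in 20 of 32 (median −0.03) with 0 at that threshold. Of 21 immediate-early and heat shock genes 10 were higher and 11 lower (median −0.03), the nuclear receptor NR4A1 being lower (−0.78 ± 0.25) and KLF4 and ATF3 higher.

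**Figure D4:**
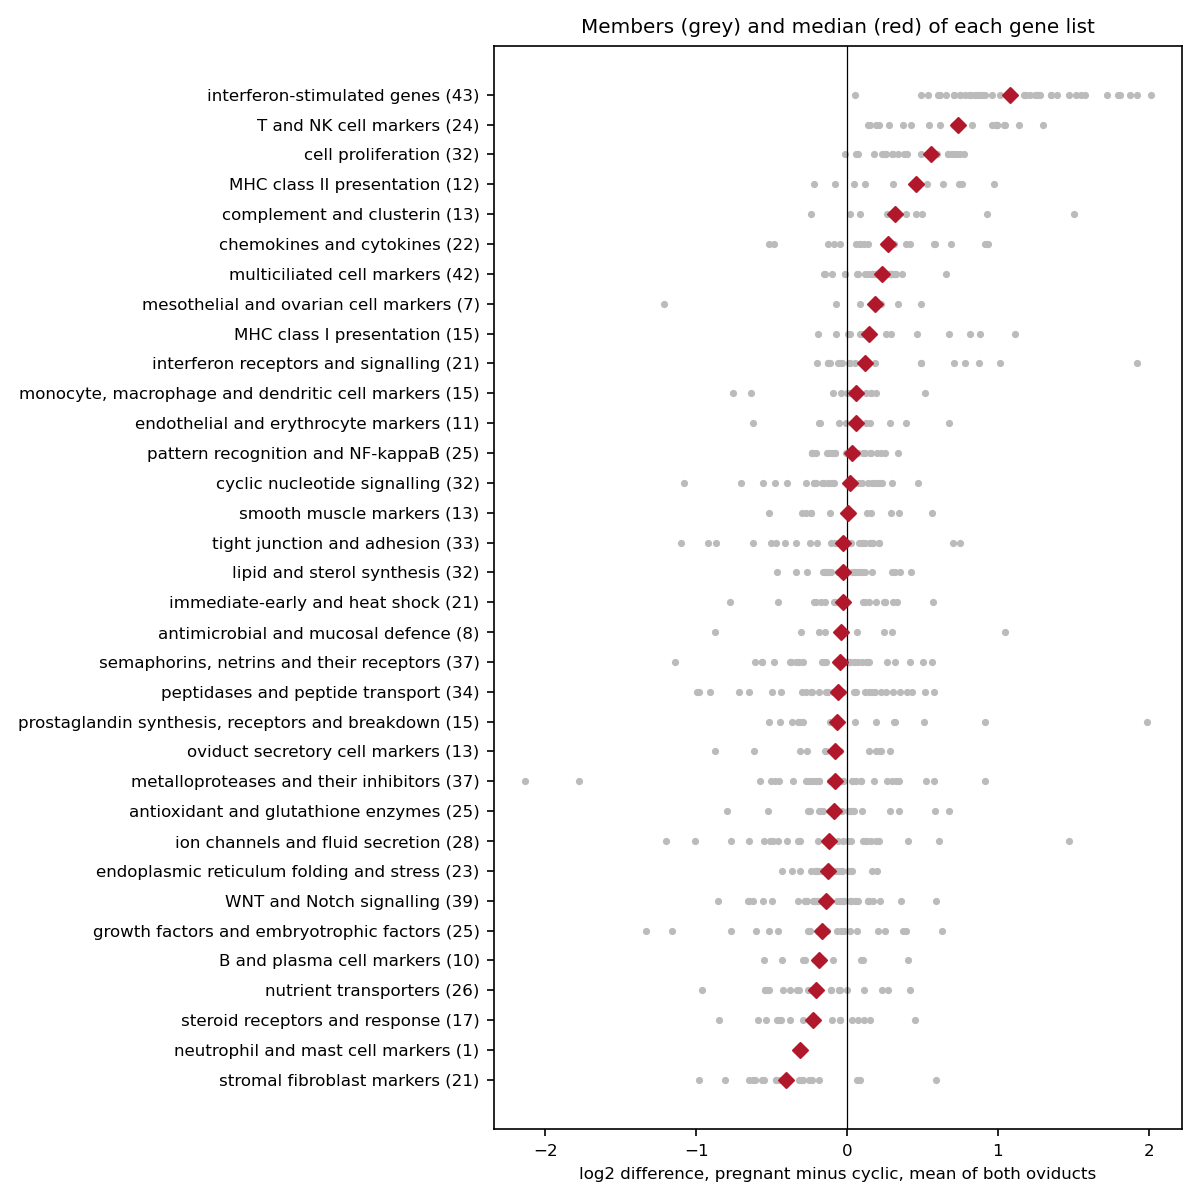
Log2 difference, pregnant minus cyclic, averaged over both oviducts (x axis), of the tested members (grey points) of 34 gene lists and their median (red diamonds), ordered by median; the number of tested genes follows each name. Interferon-stimulated genes (median 1.08) and T and NK cell markers (0.74) are at the top with all members to the right of 0, and stromal fibroblast markers (−0.40) are at the bottom.

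An average over 2 oviducts can hide unequal sides, so the difference between them was tested as well. The contrast of the ipsilateral with the contralateral pregnancy difference called 0 of 14692 features (0%), and the smallest adjusted p was 1 (limma). At an unadjusted p under 0.05 there were 225 features (1.53%), where 0.05 of all features is 734.6. Small p-values were thus rarer than that share, so 0 calls cannot show that the sides are alike. The genes with the smallest p in it were PLCXD3, a phospholipase-like protein, with log2 differences of 1.28 ± 0.39 ipsilaterally and −0.35 ± 0.39 contralaterally (unadjusted p = 0.00103), the nuclease-like TATDN3, with −0.49 ± 0.19 and 0.25 ± 0.19 (0.00208), and the aquaporin AQP6, with 0.93 ± 0.40 and −0.58 ± 0.40 (0.00255), none of which passed. Their averages over both sides were 0.46 ± 0.32, −0.12 ± 0.16 and 0.17 ± 0.33, and PLCXD3 and AQP6 had only 0 to 15 and 1 to 19 reads per library.

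Genes named for a small p of the average were alike on both sides in direction. A small p of the average favours such agreement, so it is no separate support. NLN differed by −0.67 ± 0.14 ipsilaterally and −0.76 ± 0.14 contralaterally (interaction, unadjusted p = 0.594), ANPEP by −0.82 ± 0.18 and −1.0 ± 0.18 (0.38), CFTR by −0.81 ± 0.19 and −0.72 ± 0.19 (0.643), and EEF2K by 0.90 ± 0.19 and 0.77 ± 0.19 (0.575). The 2 sides share a block where they come from 1 mare, so they are not separate evidence. The difference between sides had an unadjusted p under 0.05 (interaction, limma) in CCDC96, at 0.45 ± 0.18 ipsilaterally and 0.86 ± 0.18 contralaterally, and also in CXCL10, at −0.088 ± 0.88 and 1.96 ± 0.88, and TOP2A, at −0.071 ± 0.56 and 1.24 ± 0.56, and none of these passed. List medians were 0.82 ipsilaterally and 1.23 contralaterally for interferon-stimulated genes, 0.67 and 0.87 for T and NK cell markers, 0.22 and 0.25 for multiciliated markers, −0.42 and −0.35 for stromal fibroblast markers and 0.08 and 0.95 for cell proliferation. The last of these lists differed most between the sides, and 0 of its genes passed for that difference.

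**Figure D5:**
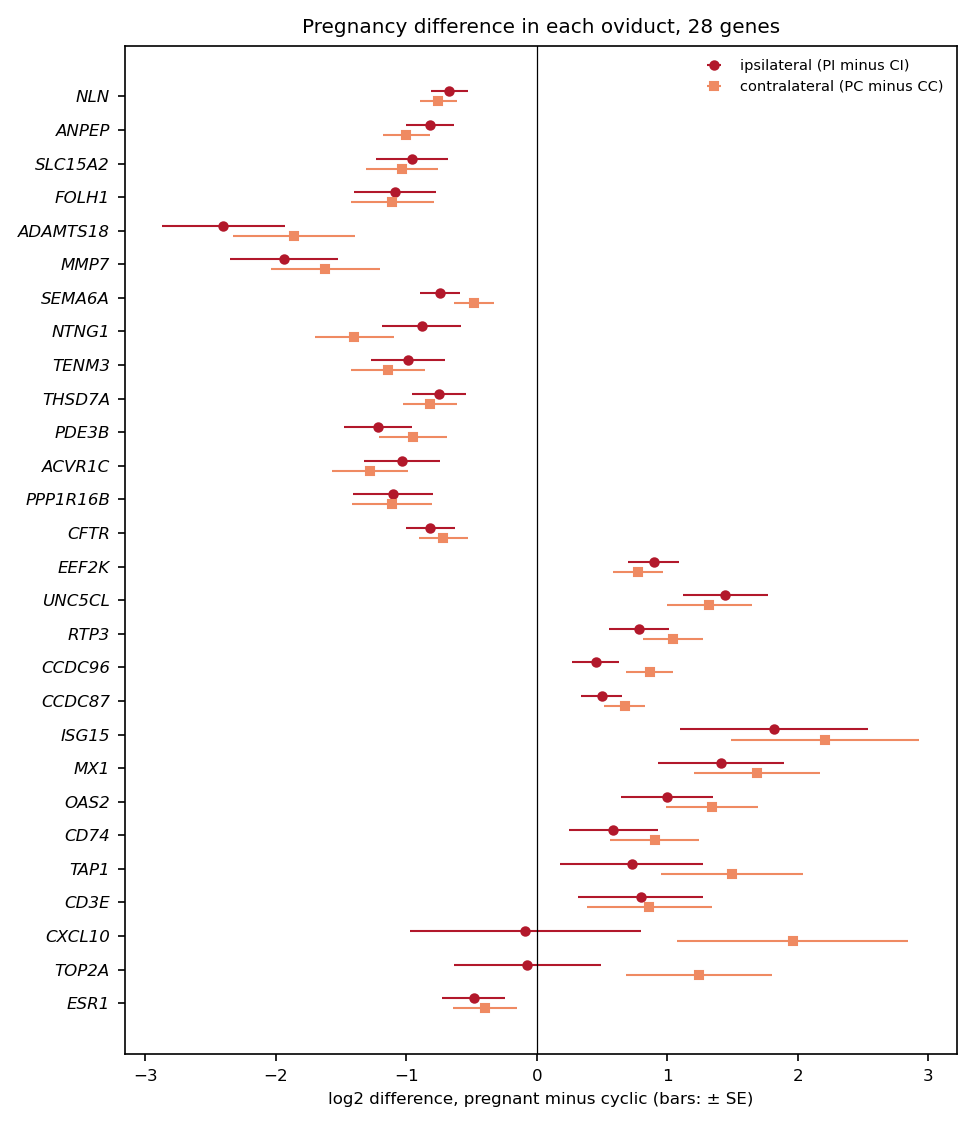
Log2 difference, pregnant minus cyclic (x axis; bars ± SE), of 28 genes in the ipsilateral oviduct (circles, PI minus CI) and in the contralateral one (squares, PC minus CC). The 2 symbols of a gene lie on the same side of 0 for all but CXCL10 and TOP2A, whose ipsilateral values are −0.088 ± 0.88 and −0.071 ± 0.56. For genes named for a small p of the average, that choice favours such agreement.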

How the data were processed

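RNA was measured by sequencing in 20 libraries of oviduct epithelium, 5 in each of 4 groups, and each column of the table matched 1 sample by name. The authors deposited TMM-normalized counts per feature, a signal made by scaling all reads of a library by 1 number. CASAVA 1.8 is named in the submitters' processing notes; which aligner, genome build, annotation and strand setting were used is not given in the sources used here, so overlapping and antisense genes are uncertain and no coordinates or sequences are printed. Per the labels' protocols the library kit was a stranded one for total RNA with ribosomal RNA removed, while another label gives polyA RNA. Whole reads were recovered from the deposited values, 100% of them whole within 0.01 reads.

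Features above 1 CPM (of the column total) in at least 5 of 20 columns were kept, 14692 of 26740. Of the tested features 12430 have a symbol. Log2 of the value plus 0.5 CPM (3.03 normalized counts) was fitted in limma 3.58.1 (R 4.3.3; trend and robust empirical Bayes) with 4 group means and status plus number as a random block (consensus correlation 0.39), with 2-sided tests and Benjamini-Hochberg adjustment at 0.05; the added constant makes differences of low genes too small. No library was dropped or imputed. Single named genes were also compared by a 2-sided exact permutation test over the 252 arrangements of the 10 means of a status and number, computed for 39 genes and not adjusted. Alternatives used edgeR 4.0.16 and DESeq2 1.42.0 on the recovered reads, other scalings, filters, pseudocounts, covariates and left-out libraries. All 50 pairs of libraries of 1 group, or of 1 status and number, differed by more than sampling noise, with a chi-square of 4.96 to 203 times its degrees of freedom. The procedure was tested on simulated data. In these each gene varied independently and every number paired its libraries. Genes that move together, and numbers that do not pair their libraries, were therefore not covered by that test.

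The comparison, the gene lists and the named genes were chosen with earlier results of these data known. Named are the 5 genes with a symbol and the smallest p in each direction, since fewer than 5 passed, the 3 with the smallest p for the difference between sides, and a fixed set of 32; all others were named after their values were seen, as examples of their lists. The values of 2 single genes are not reported here. Lists are described by counts and medians with no test of the list. In the main fit, every list count at an unadjusted p under 0.05 stands against 2.95% higher and 2.7% lower over all features. List counts from another fit stand against the count over all features in that fit, given beside them. Members of a list can move together in a library, so their number does not measure independent evidence.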

Additional observations from a re-analysis of the deposited data

Results flagged for a closer look

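Within each group of 5 libraries, the highest and the lowest value of 44 genes were compared with the other 4 by Dixon's ratio of the gap to the range. The ratio was taken on the log2 values of the fit, whereas the levels below are normalized counts. Of 176 such groups 15 had a library that stood apart, where chance alone gives about 1 in 20 groups. Several concern genes that were lower in pregnant mares. PDE3B stood at 82.01 in PI1 against 209.1 to 293.6 in the other PI libraries, and ESR1 at 1068 in PI1 against 1901 to 2118. SEMA6A was high in both libraries of pregnant number 3, at 276.7 in PI3 (others 174.8 to 194.6) and 311.2 in PC3 (196.1 to 221.8). ADAMTS18 stood at 57.63 in CI3 against 20 to 25.72, and ENSECAG00000014783 at 56.01 in CI1 (28 to 32.15) and 10.52 in PC4 (15.52 to 17.69).

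Immune genes gave 3 of the 15. CD74 stood at 58490 in CI1 against 18040 to 19400 in the other CI libraries, PTPRC at 703.8 in PC4 against 218.4 to 268.1, and CD3E at 55.42 in PI2 against 25.77 to 32.25 normalized counts. The proliferation gene TOP2A was lowest in CC1, at 64.56 against 216 to 318.4. RTP3 stood at 36.8 in CI4 (63.73 to 73.84). The remaining 3 are low genes: PLCXD3 at 11.49 in CC5 (3.953 to 5.492), OVGP1 at 11.69 in CC4 (0 to 1.318) and PTGES at 2.299 in CC5 (11.69 to 18.31).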

How the results depend on the processing

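The count of calls moved with the replicate block. Libraries of the same number deviated together in all 5 pregnant numbers (correlations 0.53 to 0.70) and in cyclic numbers 1, 2 and 5 (0.295, 0.679 and 0.621), but not in cyclic numbers 3 (0.0228) and 4 (−0.0408), so the numbers are shown to pair the libraries in part only. Without the block 3 features were called higher and 13 lower, and 696 and 654 had an unadjusted p under 0.05. Counts of calls higher and lower were 4 and 10 with library weights, 5 and 13 with edgeR and 93 and 97 with DESeq2, both without the block. The counts at an unadjusted p were then 876 and 1095, 746 and 687, and 840 and 737. Lower calls were 2 with a filter of 5 CPM, 2 without TMM (where 281 were higher at an unadjusted p) and 6 with log2 reads as a covariate. Leaving out 1 library, or both of a status and number, gave 0 to 4 calls higher, 0 to 5 lower, and 267 to 672 features higher at an unadjusted p, with the most calls without CC5 and without both libraries of pregnant number 5. Without PI1, PI4 and CI3 280 were higher and 314 lower at an unadjusted p, and 0 were called. With the T and NK marker level as a covariate 237 were higher, and with the multiciliated one 237 were lower. Over these 48 alternatives NLN was called lower in 11 and ANPEP in 12. The log2 difference turned in sign in 8 genes that had not passed. With the T and NK covariate CXCL10 was at −0.49, PTPRC at −0.18, CD3E at −0.029, PTGS2 at −0.00862, TOP2A at −0.059 and PAX8 at 0.031; with library weights PAX8 was at 0.0048; with the stromal and smooth muscle covariate MYH11 was at 0.033; and with the multiciliated covariate PTGS2 was at −0.037 and COL1A2 at 0.0039. CD3E and PTPRC belong to the marker list used as that covariate. The cause of these turns was not tested. Genes under the floor of 3 reads in some libraries, such as ADAMTS18, FGF7 and PTGES, are limited by depth.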
